A study of Mus musculus with 8 samples.

Results

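A small part of the Foxk1 peaks on the mouse autosomes stood by themselves, with no other Foxk1 summit within 200 kb on either side. They were chosen from the deposited peak list by position alone: a peak on chromosomes 1 to 19 was called lone when the nearest other summit on its chromosome lay more than 200 kb away. This held for 615 of the 28363 autosomal peaks, or 2.17%, in a list of 28933 peaks. The other 27748 autosomal peaks are the comparison used throughout.

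Foxk1 is a forkhead box transcription factor, which binds DNA through a winged-helix domain. It was first described in the muscle lineage, and in mouse cells it is known for holding down autophagy genes in fed cells and for acting on glycolysis genes. Transcription factor peaks usually gather in gene-rich, regulatory stretches of the genome, so a peak far from any other marks a stretch where little else passed the threshold.

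The series mapped Foxk1 in untreated mouse embryonic fibroblasts (MEFs), connective-tissue cells cultured from embryos, by chromatin immunoprecipitation and sequencing. It held 3 libraries made with an antibody against Foxk1, 3 with IgG, the non-specific antibody control, and 2 of input, the starting chromatin. The labels give no strain, genotype or passage for the cells. A single peak list, Foxk1 against input on the mm9 build, gave 1 signal value and 1 q-value per peak, the authors' own, and no value per library or for IgG. Read depth is unknown, no value below carries a replicate error, and with no IgG values Foxk1-specific and non-specific enrichment cannot be told apart. The signal values come from the same contrast as the positions that chose the peaks, so differences in signal are described and not tested. All peaks were 460 bp wide.

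Lone peaks were found on every autosome, from 14 on chromosome 19 to 63 on chromosome 1. Per Mb, with the highest peak end taken as the length of the chromosome, chromosome 16 held the most, with 0.357 lone peaks per Mb, and chromosome 11 the fewest, with 0.173. The highest and lowest thus differed 2.07 times, whereas the density of all peaks differed 3.66 times between the densest and the sparsest autosome.

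As a share of the peaks of their chromosome, lone peaks were scarcest on chromosomes 11 (0.999%) and 19 (1.04%), and most frequent on chromosomes 16 (3.73%) and 12 (3.72%). Chromosomes 11 and 19 are the autosomes densest in peaks, with 17.3 and 21.9 peaks per Mb, and chromosome 12 is the sparsest, with 5.98. With a fixed distance limit the share tends to fall where peaks lie denser, so the rule fixes this order in part. The order depended on the measure for chromosome 7, which had only 6.19 peaks per Mb. It carried 28 lone peaks among 944, or 2.97%, above the median of 2.20% over autosomes, whereas its 0.184 lone peaks per Mb was the next to lowest value after chromosome 11. Chromosome 12 carried 27 lone peaks among 725, or 0.223 per Mb.

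**Figure D1:**
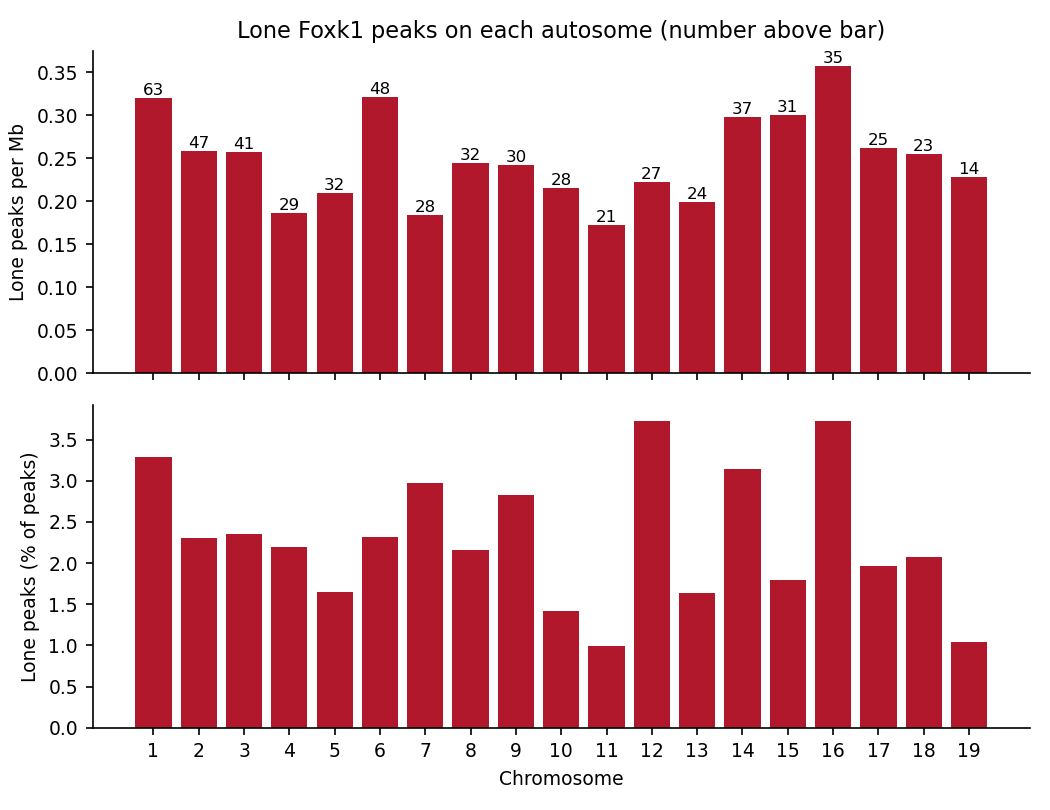
Lone Foxk1 peaks on chromosomes 1 to 19, as lone peaks per Mb with the number of lone peaks above each bar (upper panel) and as a percentage of the peaks of each chromosome (lower panel). Chromosome 16 is highest per Mb at 0.357 and chromosome 11 lowest at 0.173; as a share of peaks, chromosomes 12 and 16 lead at 3.72% and 3.73%.

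Long intervals without peaks lay on either side of each lone peak, as the rule requires. Of 28344 intervals between neighbouring autosomal summits, 2469 (8.71%) were longer than 200 kb, and these made up 1435 Mb of the 2401 Mb between the first and last summits, or 59.8%, a length that also covers sequence in which reads cannot be placed. At least 1 lone peak bordered 1046 of these long intervals (42.4%), with a length of 699 Mb or 48.7% of theirs, the other intervals lay between larger groups of peaks, and 176 had a lone peak at both ends. Read the other way, the long intervals cut the autosomal peaks into 2488 groups. Of these, 615 (24.7%) were single peaks, 268 were pairs, 203 were triplets, 576 held 4 to 9 peaks, 719 held 10 to 49 and 107 held 50 or more, up to 189.

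For most lone peaks the nearest summit was only moderately beyond the limit. The median distance to it was 322 kb (quartiles 243 and 505 kb), against 8.22 kb for other peaks (quartiles 1.82 and 26.6 kb). The farther of the 2 neighbours of a lone peak lay at a median of 701 kb, measured on the 607 lone peaks with a neighbour on both sides. The remaining 8 were the first or last peak of a chromosome and had a neighbour on 1 side only. A distance of more than 500 kb was reached by 156 lone peaks and one of more than 1000 kb by 32.

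The peaks next to the limit itself are given as examples, too few to show whether signal values change there. The 3 peaks just outside it, at 199.5, 199.6 and 199.9 kb from the nearest summit on chromosomes 17, 2 and 13, had signal values of 17.9, 12.96 and 15.6. Just inside it, a peak on chromosome 6 starting at 40768504 had its nearest summit at 200.04 kb and a signal value of 24.0. The next were a pair on chromosome 14 that were each other's nearest neighbours at 200.4 kb, starting at 108206395 and 108406840, with signal values of 13.1 and 13.7.

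Stretches around lone peaks were sparse in most cases but not in all. The number of other summits within 1 Mb had a median of 10 for lone peaks (quartiles 4 and 18) and of 35 for other peaks (24 and 48), a difference that the rule fixes in part. The range among lone peaks was wide, from 0 to 61 summits within 1 Mb. Within 5 Mb the medians were 89 summits for lone peaks and 140 for other peaks. This count includes the stretch that the rule empties, so the rule fixes it in part as well.

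Lone peaks were weaker than the rest of the list. Their median signal value was 14.1 (quartiles 12.2 and 19.6), against 18.0 for other peaks (13.5 and 27.8), a difference of -3.86. The size of this difference depended on the floor of the list: it was -1.89 when only peaks at or above the overall median signal were kept and -1.93 at a q-value of at most 0.001. A raised floor lifts the share at 50 or more in lone and other peaks alike. That share was 3.74% of lone and 8.14% of other peaks in the full list. It was 12.8% against 16.2% with the signal floor, and 12.5% against 15.8% with the q-value floor. Of the lone peaks under these floors, 191 of 781 and 199 of 767 were lone in the full list. The list ends at a signal value of 11.32, and many lone peaks lay close to that end: 239 of 615 (38.9%) had a value under 13, against 5723 of 27748 other peaks (20.6%), and 21.0% of all autosomal peaks did. Being lone thus means that no other peak passed this floor within 200 kb, not that nothing was bound there.

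The same order was seen at the upper end. Values of 20 or more were given to 150 lone peaks (24.4%) and to 42.3% of other peaks, beside 41.9% of all autosomal peaks. Values of 30 or more were given to 73 lone peaks (11.9%) and to 22.0% of other peaks, beside 21.8% of all. A value of 50 or more was that of 23 lone peaks (3.74%) and of 2260 other peaks (8.14%), beside 8.05% of all. For 100 the numbers were 6 lone peaks (0.976%) and 419 other peaks (1.51%), beside 1.5% of all. A value of 200 was exceeded by 1 lone peak (0.163%) and 57 other peaks (0.205%), beside 0.204% of all. The share of lone peaks was clearly the smaller one at 20, 30 and 50. At 100 and 200 it rests on 6 peaks and 1 peak and lies near the share of all peaks, so no order is read from it.

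**Figure D2:**
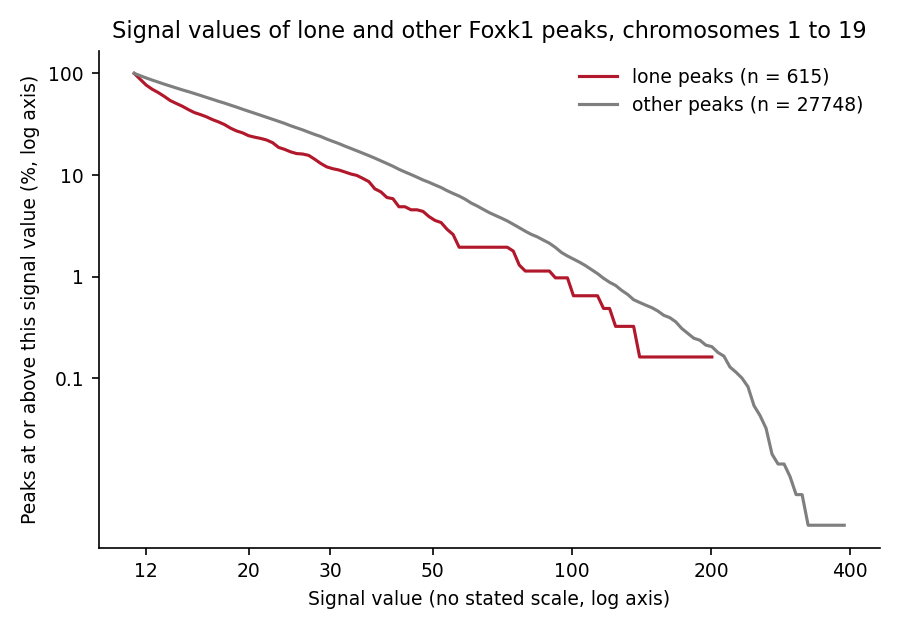
Percentage of lone peaks and of other autosomal peaks at or above each signal value, both axes logarithmic. The line for lone peaks runs below that for other peaks from the lower end of the list up to its last peak at 202; at a signal value of 50 the shares are 3.74% and 8.14%.

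The authors' q-values, which come from the same contrast as the signal values, gave the same order. The lowest q-value listed, 0.00014, was given to 36 lone peaks (5.85%) and to 3485 other peaks (12.6%), beside 12.4% of all autosomal peaks. A q-value above 0.005 was given to 172 lone peaks (28.0%) and to 3581 other peaks (12.9%), beside 13.2% of all. Counted by signal class, the share of peaks that were lone was 4.95% for values under 12, 3.03% from 12 to 14, 2.10% from 14 to 16, 1.84% from 16 to 20, 1.35% from 20 to 30, 1.28% from 30 to 50 and 0.915% from 50 to 100. Above 100 it was 1.41%, from 6 of 425 peaks.

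Median signal values declined gradually with the distance to the nearest summit, and the limit of 200 kb fell within that decline. Peaks with a summit within 1 kb had a median of 18.7, those at 20 to 50 kb 17.3, and those at 100 to 200 kb, still outside the lone set, 15.8. Among lone peaks the median was 14.4 at 200 to 300 kb (270 peaks), 14.6 at 300 to 500 kb (189), 13.4 at 500 to 1000 kb (124) and 12.5 beyond 1000 kb (32). The 32 peaks beyond 1000 kb included none above 27.8. Each of the other 3 classes of lone peaks held 2 that reached 100, or 0.741%, 1.06% and 1.61% with rising distance, beside 1.5% of all autosomal peaks. The shares at 50 or more were 2.96%, 5.29% and 4.03%, from 8, 10 and 5 peaks, beside 8.05% of all autosomal peaks. Such numbers are too small to read an order with distance among lone peaks. Among other peaks that share was 9.54% within 1 kb and 5.11% at 100 to 200 kb.

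**Figure D3:**
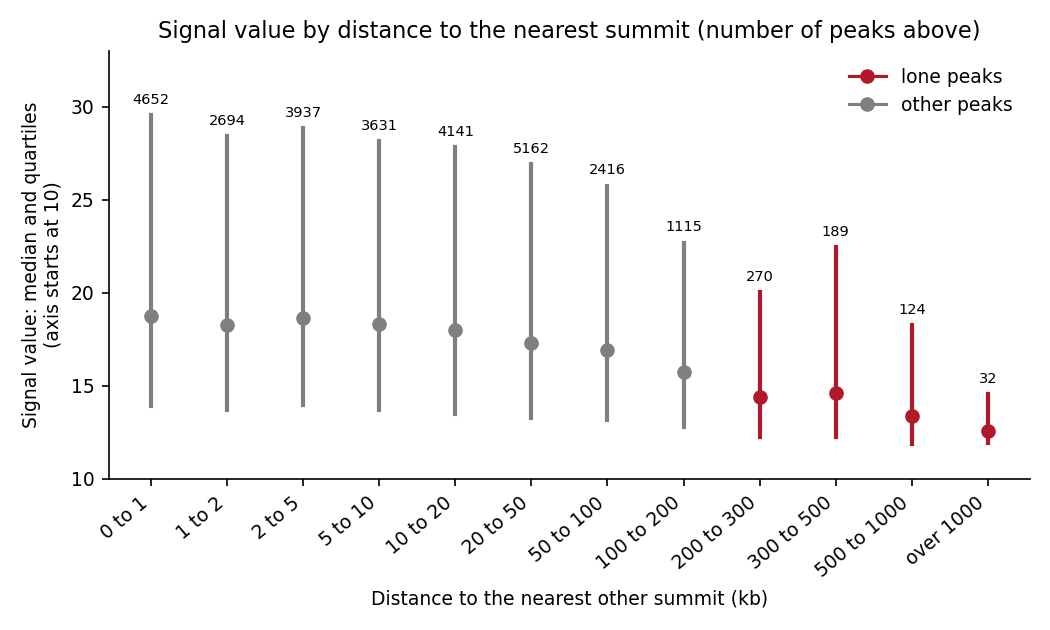
Signal values of autosomal peaks by the distance to the nearest other summit, with the median (point) and the quartiles (line) of each class and the number of peaks above it. Medians lie between 15.8 and 18.7 in the classes up to 200 kb and between 12.5 and 14.6 in those of lone peaks.

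Group size gave a similar order. The median signal value was 14.1 for single peaks, 16.3 for members of pairs, 16.5 for members of triplets, 17.4 in groups of 4 to 9, 17.9 in groups of 10 to 49 and 18.5 in groups of 50 or more. The pairs, the class most like the lone peaks in position, had 38 of 536 peaks (7.09%) at 50 or more. Single peaks had 23 of 615 (3.74%), beside 8.05% of all autosomal peaks, so the pairs lay near the share of all peaks. The rule leaves out close doublets that stood far from all else, and such doublets are among the pairs. When summits less than 2000 bp apart were taken as 1 site, 40 further sites stood alone, 37 of them made of 2 summits, and their stronger summits had a median of 23.1, a value that takes the highest summit of each site and so is not like for like with that of single peaks. The strongest of these doublets lay on chr16:22439638-22440097, with a signal value of 207 and the nearest other site at 257 kb, above every single lone peak. The next, on chr19:19321189-19321648, had a signal value of 100.1.

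The lower level of lone peaks was seen on each chromosome taken singly. Their median was below that of other peaks on 19 of 19 autosomes, with differences from -6.05 to -0.55. With the floor of the list raised, this held on fewer autosomes, 16 for peaks at or above the overall median signal and 13 at a q-value of at most 0.001. The gap was widest on chromosome 11, where lone peaks had a median of 12.7 against 18.8 for other peaks, and on chromosome 19, with 12.3 against 18.1. It was narrowest on chromosome 7, with 17.5 against 18.0, and on chromosome 10, with 16.5 against 17.2. The medians of other peaks hardly varied, between 17.2 and 18.8, while those of lone peaks, which rest on 14 to 63 peaks each, ran from 12.3 to 17.5. Within windows of 5 Mb that held both kinds, lone peaks had the lower median in 225 of 329 windows (68.4%), and the median of the differences was -2.74. This is not like for like with the -3.86 of the pooled list. Pooled over the same windows, the medians were 14.2 for the 601 lone peaks and 17.9 for other peaks.

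**Figure D4:**
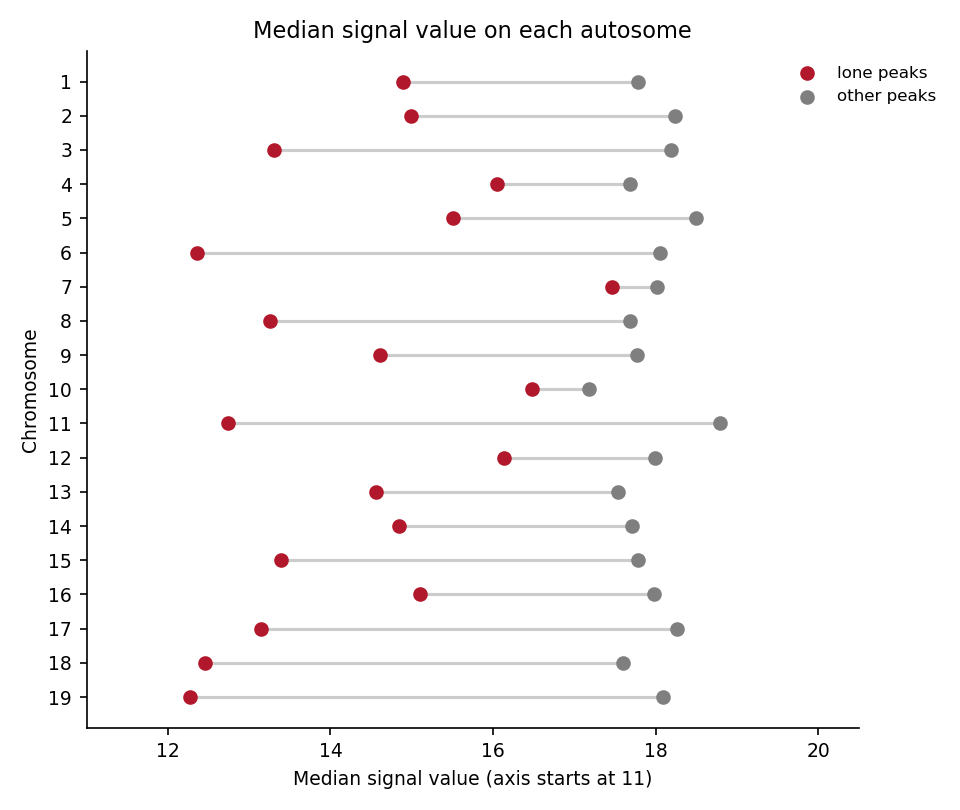
Median signal value of lone peaks and of other peaks on each autosome, joined by a line; the axis starts at 11. Lone peaks lie to the left on all 19 autosomes, by 6.05 on chromosome 11 and by 0.55 on chromosome 7.

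Against this weak background a small set of lone peaks was strong. The strongest lone site was chr18:14941506-14941965, with a signal value of 202, which ranked 56th among all autosomal peaks. Its neighbours lay 812 kb to the left and 328 kb to the right, with signal values of 12.1 and 12.2, both near the floor of the list. Next came chr6:25759090-25759549, with a signal value of 138. This peak had 1 other summit within 1 Mb, the fewest of the 23 lone peaks that reached 50, and no summit for 2430 kb to its right.

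A further 4 lone peaks reached 100. They included chr14:103498804-103499263, at 121, and another peak on chromosome 6, chr6:103598868-103599327, at 117. The peak chr4:153534760-153535219 had a signal value of 101 and the greatest distance to the nearest summit of the 23 lone peaks that reached 50, 906 kb, with 1888 kb free on its left. On chromosome 17 the peak from 48095321 to 48095780, with 100.5, stood only a little outside the limit, 227 kb from its right neighbour, and had 21 other summits within 1 Mb. Among these 6 peaks the number of other summits within 1 Mb ran from 1 to 21.

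The remaining members of the 10 strongest had signal values between 75.3 and 91.4. Chromosome 13 held the first of them, from 95808329 to 95808788, with 91.4. Its left neighbour, 515 kb away and starting at 95293160, was itself a lone peak with a signal value of 50.5, so that 2 strong lone sites followed each other there. The others were chr14:88794796-88795255 with 78.4, chr7:128804211-128804670 with 75.8 and chr5:120120581-120121040 with 75.3.

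Lone peaks that reached 50 were spread over 13 autosomes, with 3 on chromosome 5 and none on chromosomes 3, 8, 9, 11, 16 and 19. Where the strongest lone peak of a chromosome was not among the 10 above, it reached 74.0 on chromosome 1 (from 37486728), 55.4 on chromosome 2 (from 70175162), 54.9 on chromosome 15 (from 23833877), 54.5 on chromosome 10 (from 22032210) and 52.9 on chromosome 12 (from 52448841). That on chromosome 10 had 53 other summits within 1 Mb, so it stood alone inside a region rich in peaks. On the 6 autosomes without a lone peak of 50, the strongest had 44.4 on chromosome 19 (from 42862729), 41.7 on chromosome 3 (from 98945092), 41.3 on chromosome 11 (from 28037698), 39.4 on chromosome 16 (from 64514630), 37.5 on chromosome 9 (from 59999904) and 28.6 on chromosome 8 (from 43049651). On chromosome 11, none of 21 lone peaks reached 50, and 209 other peaks did, among 2103 peaks in all. The 6 autosomes with none held from 14 lone peaks (chromosome 19) to 41 (chromosome 3). With 3.74% of all lone peaks at 50 or more, such numbers are too small to read none as a trait of a chromosome.

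**Figure D5:**
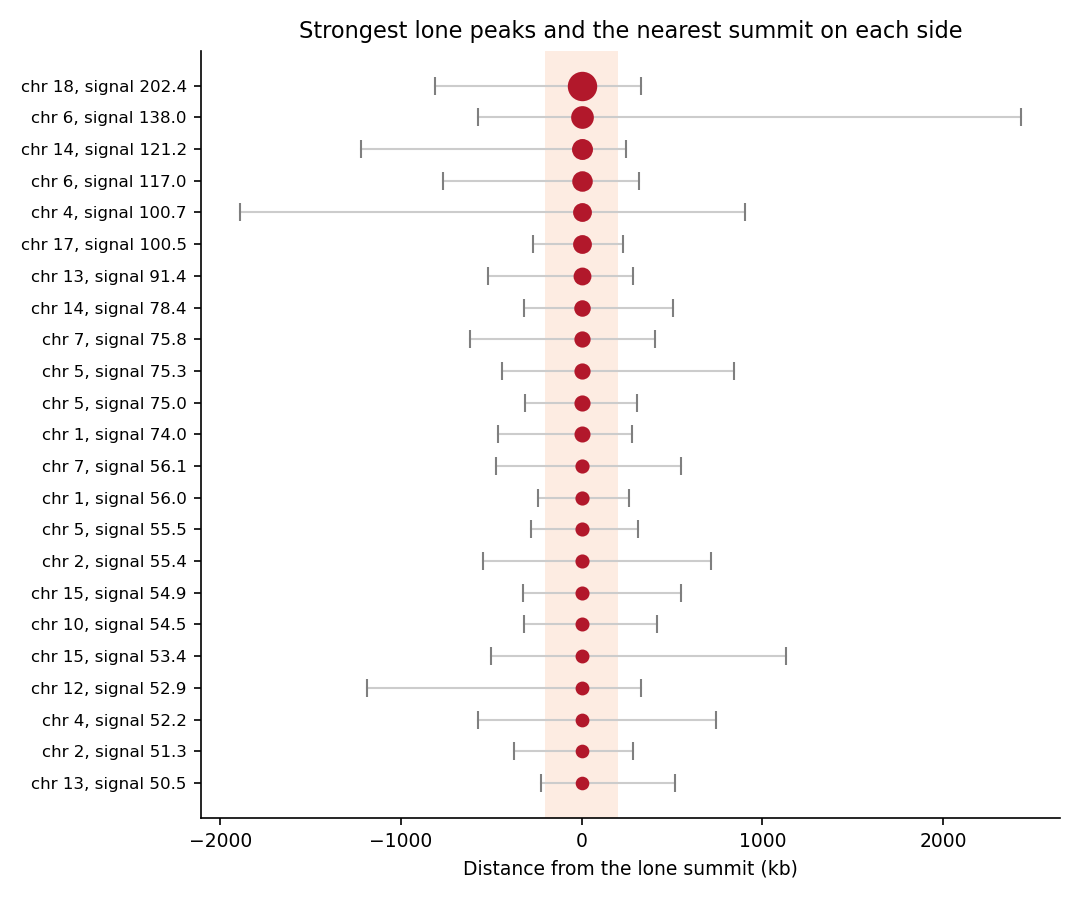
The 23 lone peaks that reached a signal value of 50, strongest at the top, with the nearest summit on either side as a tick and the 200 kb limit shaded; the size of the point grows with the signal value. The distance to the nearer tick runs from 225 to 906 kb.

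The strong lone peaks had their neighbours at distances similar to those of the weaker ones. The nearest summit lay at a median of 321 kb for those that reached 50 and of 322 kb for the 592 below 50. Other summits within 1 Mb had a median of 10 in both sets, and within 5 Mb of 90 and 89. The flanking peaks had a median signal value of 17.3 around the strong set and 15.5 around the weaker one. A neighbour of 50 or more flanked 2 of the 23 strong peaks (8.70%), which were the pair on chromosome 13, and 61 of the 592 weaker ones (10.3%), so that these measures gave no common order.

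Of the 5 most isolated lone peaks, 4 had signal values below the median of all lone peaks. The peak farthest from any other lay on chr4:76070781-76071240, with its nearest summit at 3463 kb and the other neighbour at 4487 kb. It had a signal value of 24.1, above the median of other peaks. The next 4 had values from 11.7 to 13.3: chr8:100927558-100928017 (2515 kb, signal value 12.4), chr3:43504766-43505225 (2095 kb, 11.7), chr12:48218450-48218909 (2037 kb, 13.3) and chr3:12677279-12677738 (1829 kb, 12.6). None of these 5 had another summit within 1 Mb.

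Some lone peaks were neighbours of one another. Runs of at least 2 lone peaks in a row numbered 124 and held 300 of the 615 (48.8%). Single peaks made up 24.7% of all groups, so that many would be neighbours wherever they lay, and the number of runs is given as a description only. The longest had 9 lone peaks in a row on chromosome 6, from 74698306 to 80988363, a stretch of 6.29 Mb in which signal values stayed between 11.4 and 16.4. Next came 7 in a row on chromosome 1, from 110028562 to 113987365, where 5 of the values lay between 11.3 and 13.04 and the other two were 28.9 and 35.3. Not all runs were weak throughout. A run of 6 on chromosome 14, from 88794796 to 91726946, began with the peak of 78.4 and went on with 22.8, 11.4, 22.8, 14.2 and 11.6. A run of 5 on chromosome 2, from 69113876 to 71112949, had the peak of 55.4 in its middle and values from 12.3 to 16.4 around it. In fixed windows of 10 Mb, the most lone peaks were found on chr1:110000001-120000000, with 10 among 21 peaks, and on chr14:90000001-100000000, with 10 among 43.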

How the data were processed

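Per the labels, 3 Foxk1, 3 IgG and 2 input libraries of MEFs were made. The submitters' processing notes name Bowtie (no version) and mm9. Of the peak caller, its settings and any pooling, nothing is given in the sources used here. What the authors deposited was 1 narrowPeak list with a signal value per peak, a score with no stated scale, and a q-value on a linear scale (deposited values from 0.00014 to 0.00995).

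Summits were start plus offset. Coordinates are 1-based on mm9. Lone peaks, medians, shares and group sizes were computed with Python 3.11.15, numpy 2.4.6, pandas 2.3.3 and matplotlib 3.10.9, and the finding of lone peaks was tested on simulated data. For shares and medians, the intervals that judged the alternatives were exact binomial ones at 95% (scipy 1.17.1), and counts had no interval. These intervals treat peaks as independent, which they are not, and give no replicate error. That of the difference takes the median of other peaks as fixed. The rule for naming peaks, written for this report besides the rule for members, took the 10 strongest lone peaks, the strongest of each autosome, the 5 most isolated and those next to the limit; runs, doublets and other peaks were chosen after their values were seen. Members and lists were chosen with earlier results of these data known. Genes, motifs and sequences at the peaks were not analysed here, as the reference tables are of another build.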

Additional observations from a re-analysis of the deposited data

How the results depend on the processing

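The 615 lone peaks (2.17%, median 14.1, difference from other peaks -3.86, share of at least 50 3.74%) depend on the distance limit and on which peaks may count as neighbours. With a limit of 100 kb there were 1730 (6.10%, median 15.1, difference -2.95), and with 500 kb 156 (0.550%, median 13.2, difference -4.69). With only the peaks whose signal value was at least the median of 17.8, which raises the floor, 781 were lone and 191 of these were in the original set (5.49%, median 25.9, difference -1.89, share of at least 50 12.8%, against 16.2% for other peaks). At a q-value of at most 0.001 there were 767, of which 199 were shared (5.26%, median 25.4, difference -1.93, share of at least 50 12.5%, against 15.8% for other peaks). Merging summits less than 2000 bp apart gave a share of 2.69%, from 655 sites. Chosen after seeing the data, the difference was -2.74 within 5 Mb windows and -3.16 as the median over chromosomes. Both are medians of differences and not like for like with the pooled -3.86. The difference stayed below 0 in all alternatives run, of which the signal and q-value floors are close to 1 check. The median of lone peaks was lower on 13 autosomes (q-value limit) to 19. No paired analysis was possible because the list holds no value per replicate, and no replicate could be left out. With depth unknown, an empty stretch means that no peak was listed there.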

Other observations

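By the same spacing rule, chromosome X, which lies outside the autosomal set, had 38 lone peaks among 569, or 6.68%. This is a larger share than on any autosome, whereas the 0.228 lone peaks per Mb lie within the autosomal range. Peaks lay sparser on X than on any autosome. A fixed distance limit raises the share where peaks are sparse, so it is not read as a trait of X. The lone peaks of X had a median signal value of 14.5, against 16.5 for its other peaks. The highest had 87.2, the only one of at least 50. The single peak on Y has no neighbour and was not counted.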
